A study of Triticum aestivum with 12 samples.

Results

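A set of 18 wheat genes was undetected, or seen as a single read, in the flag leaf of AAC Starbuck, while every library of the other 3 varieties held transcripts of all of them. The genes were chosen by their values in the deposited table of normalized counts. A gene was taken when it stood at 1.3 or less in all 3 AAC Starbuck libraries, which is about 1 read, and at 10 or more in all 9 other libraries. Genes on unplaced scaffolds were left out, as were 6 blocks of identifiers on chromosomes 1B, 2A, 2B, 3D, 4A and 6B. The table lists 107411 genes, of which 104913 are placed on a chromosome. Of these, 31093 lay outside the blocks and reached 10 in all 9 libraries of the other varieties, and they serve as the candidate genes below. The 18 genes were 0.0579% of the candidates. Another 8 genes passed the same limits inside the blocks and 3 passed on the unplaced scaffolds, and they are not described here.

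AAC Starbuck was sequenced beside 3 other modern Canadian spring bread wheats. AAC Starbuck and AAC Concord are assigned to the Western ecozone, AAC Magnet and AAC Tradition to the Eastern ecozone. Each variety was represented by 3 flag leaf libraries labelled as controls, giving 12 in all. No treatment, mutation or transgene distinguished the groups, so variety was the only factor. The labels describe leaves from plots in a field, whereas the study's methods place the plants in a greenhouse, and the expression values cannot settle which is right. The study's methods describe flag leaf samples taken from 3 replicates of each variety. The labels number the replicates of a variety without saying whether each came from a plot of its own. The p-values therefore measure only the spread between these libraries, which need not be that between plots.

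Bread wheat is a hexaploid with the subgenomes A, B and D, and most of its genes therefore exist as sets of related copies called homoeologues. Varieties of wheat differ in which genes they carry, because segments of chromosomes have been lost, gained or brought in from relatives during breeding. Reads are assigned by comparison with a single reference variety. A transcript that is absent from a library, a gene that is absent from the genome of the variety, and a gene whose sequence lies too far from the reference for its reads to be assigned therefore cannot be told apart in a table of counts. In a whole leaf, fewer cells of a type and less RNA per cell cannot be told apart either. The table names genes by identifiers of the first version of the wheat reference, whose numbers follow the order of the genes along each chromosome. None of the 18 identifiers (0 matches) was found in the RefSeq gene table of 155467 genes. Only the 18 were looked up, and no annotation under identifiers of this kind was at hand. The lack of a match is therefore not particular to these genes, and no function, homoeologue or sequence is given for them.

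The values of a library summed to between 5077330 and 5902642 normalized counts. Low values rose in steps that were read as single reads and were worth 0.797 to 1.24 normalized counts, which placed the depth at 4495925 to 7077463 reads per library. The 3 AAC Starbuck libraries were within this range, at 4900853 to 6917829 reads. The median of the candidate genes was also alike in all libraries, at 69.3 to 71.2 normalized counts. Levels are not corrected for gene length and are compared between genes only as counts.

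The 18 genes together gave 3 reads in AAC Starbuck. TraesCS1B02G451600 was at 1.04 in replicate 2, TraesCS2D02G566400 at 0.823 in replicate 1 and TraesCS6D02G270200 at 0.798 in replicate 3, each the value of a single read. The other 15 genes were at 0 in all 3 libraries. The values of the 18 genes summed to 0.798 to 1.04 in an AAC Starbuck library, against 946 to 1431 in a library of another variety. A count of 0 allows up to 3 reads over the 3 AAC Starbuck libraries together, which corresponds to a mean of 0.875 normalized counts and covers counting error only. Against this limit, the mean over the 9 other libraries was at least 24.4-fold higher for TraesCS1A02G161200 and at least 365-fold higher for TraesCS3B02G024500, with a median of 42.2 over the 15 genes. For the 3 genes with a read, the mean over the 9 other libraries was divided by the value of a single read at the pooled depth of the 3 AAC Starbuck libraries. This divisor is not the AAC Starbuck mean of the gene. The ratio was 175 (95% counting interval 31.5 to 6925) for TraesCS1B02G451600, 89.3 (16.0 to 3527) for TraesCS2D02G566400 and 82.0 (14.7 to 3239) for TraesCS6D02G270200. These ratios follow from the way the genes were chosen and were not tested.

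**Figure D1:**
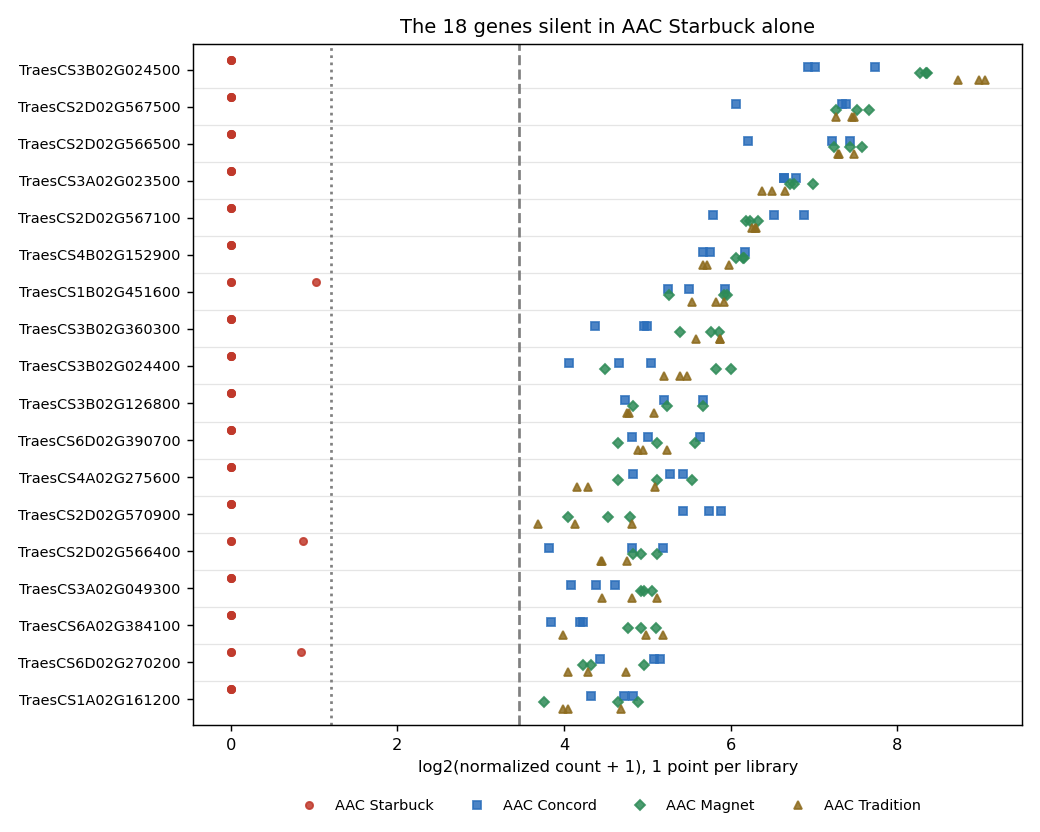
Normalized counts of the 18 genes, 1 row per gene, on an axis of log2(value + 1) with each point a library, coloured by variety. The dotted line marks the limit of 1.3 for AAC Starbuck and the dashed line the limit of 10 for the other varieties. All AAC Starbuck points lie at 0 or at the value of 1 read, and the points of the other varieties reach from 11.9 to 529.

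The limits were not far from some of the genes. The highest AAC Starbuck values inside the limit were the 1.04 of TraesCS1B02G451600 and the 0.823 of TraesCS2D02G566400. Just outside it were TraesCS3B02G348700 and TraesCS1A02G321900, both at 0 in replicates 1 and 2, with 1.593 and 1.597, respectively, in replicate 3. Among the other varieties, the lowest values inside the limit of 10 were 11.9 for TraesCS2D02G570900 in AAC Tradition replicate 2 and 12.6 for TraesCS1A02G161200 in AAC Magnet replicate 1. TraesCS3A02G284700 and TraesCS6A02G001500, at 0 in all AAC Starbuck libraries, were left out because their lowest values elsewhere were 9.57 and 9.55. With other limits the set held 9 genes when 20 was required of the other varieties, 29 at a limit of 5, and 23 when up to 2.6 was allowed in AAC Starbuck.

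The genes were expressed at modest levels in the other varieties. Their means over the 9 libraries ran from 21.4 for TraesCS1A02G161200 to 319.5 for TraesCS3B02G024500, with a median of 35.7, whereas the median of the candidate genes was 71.2. There were 11 genes with a mean under 50, 3 between 50 and 100, and 4 above 100. The most abundant, TraesCS3B02G024500, was higher than 90.6% of the candidates, and the next, TraesCS2D02G567500, higher than 77.2%. The coefficient of variation over the 9 libraries ranged from 0.123 for TraesCS3A02G023500 to 0.552 for TraesCS2D02G570900, with a median of 0.272 beside 0.207 for the candidates. Without replicate 1 of AAC Concord, which is described below, the medians were 0.263 and 0.201. The lowest coefficient was then 0.0909 for TraesCS2D02G566500 and the highest 0.521, still for TraesCS2D02G570900.

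The chromosomes held unequal numbers of the genes. There were 5 on chromosome 2D, 4 on 3B, 2 each on 3A and 6D, and 1 each on 1A, 1B, 4A, 4B and 6A, which left 12 of the 21 chromosomes without any. By subgenome, A held 5, B held 6 and D held 7, where the candidates were divided as 33.4%, 32.4% and 34.2%. Of the 18 genes, 12 lay in the outer 10% of the identifiers at either end of their chromosome, a position shared by 12.6% of the candidates. Widening the ends to the outer 20% of identifiers added none (12 genes, beside 29.4% of the candidates). The 6 genes in the interior were TraesCS1A02G161200, TraesCS3B02G126800, TraesCS3B02G360300, TraesCS4A02G275600, TraesCS4B02G152900 and TraesCS6D02G270200. Neighbouring genes are not independent, and the shares are given as a description.

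In places the genes followed each other along the chromosome. A run was counted where genes of the set stood next to each other in the order of the candidates, with no other candidate between them. There were 2 runs, which held 6 of the 18 genes. The longest had 4 genes, TraesCS2D02G566400, TraesCS2D02G566500, TraesCS2D02G567100 and TraesCS2D02G567500, near the far end of 2D at 94.1% to 94.3% of its identifiers. TraesCS3B02G024400 and TraesCS3B02G024500 formed the other, near the start of 3B at 4.0% of its identifiers.

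The run on 2D held 3 of the more abundant genes of the set. TraesCS2D02G567500 gave 65.7, 161 and 167 normalized counts in replicates 1 to 3 of AAC Concord, 182, 153 and 202 in AAC Magnet, and 175, 153 and 178 in AAC Tradition. TraesCS2D02G566500 gave 73.2, 148 and 171 in AAC Concord, 151, 172 and 190.3 in AAC Magnet, and 156, 155 and 178 in AAC Tradition. Replicate 1 of AAC Concord was the lowest of the 9 libraries for both genes, and apart from it the varieties overlapped. TraesCS2D02G567100 gave 54.4, 90.7 and 117 in AAC Concord, 79.6, 74.0 and 72.0 in AAC Magnet, and 75.6, 78.4 and 77.4 in AAC Tradition. TraesCS2D02G566400 was at a lower level, with 13.1, 27.2 and 35.5 in AAC Concord, 29.3, 27.5 and 33.8 in AAC Magnet, and 26.0, 20.9 and 21.0 in AAC Tradition. Again AAC Concord replicate 1 was the lowest library, while AAC Concord replicate 3 was the highest for both.

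AAC Concord replicate 1 was low along the whole of chromosome 2D, and not only in these genes. Over 1254 genes of 2D with at least 20 normalized counts in all libraries, the median ratio of this library to the mean of the other AAC Concord replicates was 0.542. On its other 20 chromosomes the median ratio was between 0.993 and 1.03, and for all other libraries and chromosomes, 2D of AAC Concord aside, between 0.967 and 1.03. The ratio was 0.419 for TraesCS2D02G566400, 0.459 for TraesCS2D02G566500, 0.523 for TraesCS2D02G567100 and 0.401 for TraesCS2D02G567500. TraesCS2D02G570900, the fifth gene on this chromosome, had a ratio of 1.23 instead. Among the 13 genes on other chromosomes the ratio was 0.803 to 1.70, with a median of 1.09. Without replicate 1, the AAC Concord means of the genes of the run were 31.3, 159, 104 and 164 in the order of their identifiers. All 5 genes stayed in the set without this library.

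**Figure D2:**
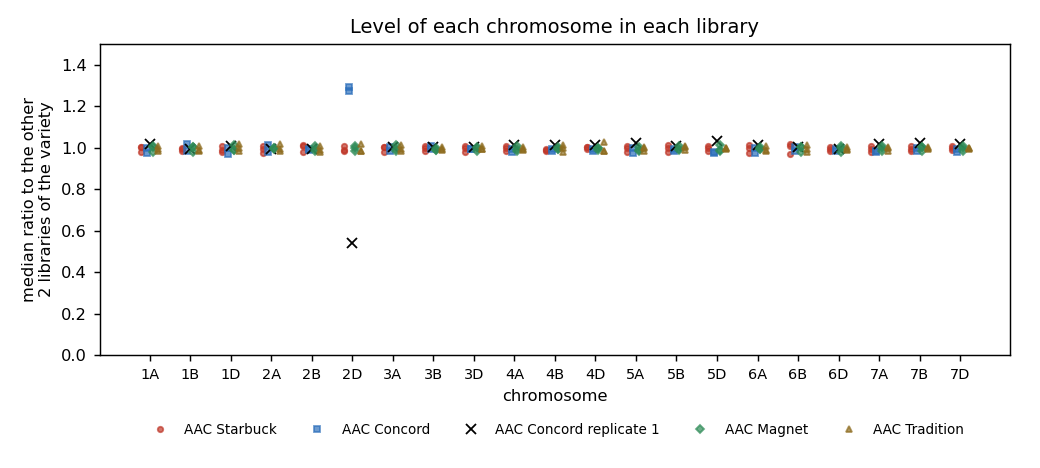
Median ratio of each library to the mean of the other replicates of its variety, by chromosome, for genes with at least 20 normalized counts in all libraries. Replicate 1 of AAC Concord lies at 0.542 on chromosome 2D and between 0.993 and 1.03 on its other 20 chromosomes.

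TraesCS2D02G570900, a little further along 2D at 94.8% of the identifiers, was most abundant in AAC Concord. It gave 58.1, 42.1 and 52.3 there, 22.0, 15.5 and 26.7 in AAC Magnet, and 27.3, 11.9 and 16.6 in AAC Tradition. The AAC Concord libraries were thus all above the other 6, whereas AAC Magnet and AAC Tradition overlapped. It was the most variable gene of the set.

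The pair on 3B differed from each other in level and in pattern. TraesCS3B02G024500, the most abundant gene, gave 212, 121 and 128 in AAC Concord, 326, 308 and 325 in AAC Magnet, and 503, 529 and 424 in AAC Tradition. No library of a variety overlapped with another variety, and the means were 154 ± 50.7, 319.5 ± 9.94 and 485 ± 55.0 (SD, n = 3 each). TraesCS3B02G024400, whose identifier comes just before it, gave 24.4, 15.7 and 32.0 in AAC Concord, 55.5, 21.5 and 63.1 in AAC Magnet, and 35.9, 43.6 and 40.8 in AAC Tradition. The AAC Magnet libraries of TraesCS3B02G024400 covered the whole range of AAC Tradition and part of that of AAC Concord.

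Elsewhere on 3B, TraesCS3B02G360300 gave 30.02, 19.8 and 31.0 in AAC Concord, 40.9, 57.3 and 53.4 in AAC Magnet, and 47.1, 57.6 and 57.5 in AAC Tradition. Its AAC Concord libraries were all below the other 6. TraesCS3B02G126800 gave 35.6, 25.6 and 49.7 in AAC Concord, 36.7, 27.4 and 49.8 in AAC Magnet, and 26.0, 32.7 and 26.5 in AAC Tradition. Here the 3 varieties overlapped.

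On 3A, TraesCS3A02G023500 was the steadiest gene of the set over the 9 libraries, with 98.4, 99.0 and 109 in AAC Concord, 108, 104 and 126 in AAC Magnet, and 89.2, 82.3 and 99.4 in AAC Tradition. The 9 libraries stood close to their mean of 102 ± 12.5 (SD, n = 9), and those of AAC Magnet were all above those of AAC Tradition. TraesCS3A02G049300 gave 23.4, 19.8 and 16.0 in AAC Concord, 29.3, 32.2 and 30.2 in AAC Magnet, and 27.2, 33.7 and 21.0 in AAC Tradition. Its AAC Concord and AAC Magnet libraries did not overlap, and AAC Tradition spanned all of the AAC Magnet range and part of that of AAC Concord.

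On 6A, TraesCS6A02G384100 gave 17.8, 17.3 and 13.3 in AAC Concord, 33.5, 26.2 and 29.3 in AAC Magnet, and 14.9, 30.8 and 35.4 in AAC Tradition. AAC Concord lay below AAC Magnet, and replicate 1 of AAC Tradition lay among the AAC Concord libraries. On 6D, TraesCS6D02G270200 gave 34.7, 20.6 and 32.8 in AAC Concord, 17.8, 19.1 and 30.2 in AAC Magnet, and 18.6, 25.8 and 15.5 in AAC Tradition. TraesCS6D02G390700 gave 48.8, 27.2 and 31.1 in AAC Concord, 24.1, 46.5 and 33.8 in AAC Magnet, and 28.5, 36.7 and 29.9 in AAC Tradition. The varieties overlapped for both genes of 6D.

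The remaining genes stood alone on their chromosomes, and for all but TraesCS4B02G152900 the 3 varieties overlapped. TraesCS4B02G152900 gave 49.7, 52.8 and 71.0 in AAC Concord, 66.0, 70.4 and 70.2 in AAC Magnet, and 61.9, 51.6 and 49.7 in AAC Tradition. TraesCS1B02G451600 gave 44.1, 37.1 and 60.3 in AAC Concord, 59.7, 60.9 and 37.4 in AAC Magnet, and 59.5, 55.6 and 45.4 in AAC Tradition. The AAC Magnet libraries of TraesCS4B02G152900 were all above those of AAC Tradition. Both genes had means between 50 and 100, of 60.4 and 51.1 over the 9 libraries. TraesCS4A02G275600 gave 37.5, 42.1 and 27.5 in AAC Concord, 24.1, 45.4 and 33.8 in AAC Magnet, and 18.6, 16.9 and 33.2 in AAC Tradition. TraesCS1A02G161200, the gene with the lowest mean, gave 25.3, 19.0 and 27.5 in AAC Concord, 12.6, 28.6 and 24.0 in AAC Magnet, and 24.8, 14.9 and 15.5 in AAC Tradition.

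To find whether the genes also differed among the varieties that expressed them, AAC Concord, AAC Magnet and AAC Tradition were compared with limma on log2(normalized count + 1). AAC Starbuck was kept out of this fit because zeros in its libraries would lower the estimated spread of exactly these genes. The fit held the 42486 genes that reached 10 in at least 3 of the 9 libraries. The 18 passed this filter through the rule that chose them, which also kept them at 10 or more in all 9 libraries. The genes tested include some that are at 0 in a variety, such as TraesCS6D02G392000 in AAC Concord and AAC Magnet. The shares over all genes are therefore not like for like with those of the 18. A difference was called at an adjusted p under 0.05, by Benjamini-Hochberg over all genes tested, together with a log2 fold change above 1 or below -1. Between AAC Concord and AAC Magnet 2 of the 18 genes were called, where 8.9% of all genes tested were called. In AAC Concord 1 of them was higher and 1 was lower, beside 4.22% and 4.68% of all genes. Against AAC Tradition, too, 1 gene was higher and 1 was lower in AAC Concord, beside 2.73% and 3.96% of all genes (6.68% in all). AAC Magnet and AAC Tradition differed in 0 of the 18 genes by limma, beside 6.01% of all genes (2.74% higher and 3.28% lower in AAC Magnet), with 1 gene at an unadjusted p under 0.05. Over all genes this balance depended on the scaling, since 1163 were higher and 1392 lower in AAC Magnet as deposited, and 1435 higher and 1200 lower once all libraries had been brought to an equal total. Across the 3 varieties, 3 genes had an adjusted p under 0.05 in limma's F test, beside 16.9% of all genes. With so few genes, and with the 18 held to a stricter limit than the rest, these shares do not set the 18 apart from the rest of the table.

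The calls came from TraesCS3B02G024500 and TraesCS2D02G570900, which changed in opposite directions. TraesCS3B02G024500 was lower in AAC Concord than in AAC Magnet by a log2 fold change of -1.10 (SE 0.220, limma adjusted p = 0.012) and lower than in AAC Tradition by -1.69 (SE 0.220, limma adjusted p = 0.0016). Between AAC Magnet and AAC Tradition its log2 fold change was -0.60 (limma adjusted p = 0.15), although their libraries did not overlap. TraesCS2D02G570900 was higher in AAC Concord than in AAC Magnet by 1.23 (SE 0.306, limma adjusted p = 0.030) and than in AAC Tradition by 1.47 (SE 0.306, limma adjusted p = 0.019). Without AAC Concord replicate 1 these values were 1.13 (limma adjusted p = 0.089) and 1.37 (limma adjusted p = 0.067), so neither call held. The call against AAC Magnet was also lost without AAC Concord replicate 2 or 3 or AAC Magnet replicate 1 or 2 (limma adjusted p = 0.053 to 0.094 over these 5 libraries). That against AAC Tradition was also lost without AAC Concord replicate 3 or AAC Tradition replicate 2 or 3 (limma adjusted p = 0.057 to 0.067 over these 4 libraries). Without AAC Concord replicate 2 or 3, TraesCS3B02G024500 missed the fold change limit against AAC Magnet, at -0.95 and -0.99, and kept its call against AAC Tradition.

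TraesCS3B02G360300 was the third gene in the F test, with an adjusted p of 0.022 by limma. Its log2 fold changes in AAC Concord were -0.89 against AAC Magnet (limma adjusted p = 0.027) and -0.999 against AAC Tradition (limma adjusted p = 0.022), neither of which reached the fold change limit. The limit was passed against AAC Magnet when replicate 3 of AAC Concord (-1.006) or replicate 1 of AAC Magnet (-1.04) was left out, and against AAC Tradition without AAC Concord replicate 1 or 3 or AAC Tradition replicate 1 (-1.11 to -1.09). With all 9 libraries in the fit, the remaining genes were not called in any contrast. Apart from TraesCS3B02G360300 none of these had an adjusted p under 0.05 there. Without AAC Magnet replicate 2, however, 2 genes of the set were called between AAC Concord and AAC Magnet, though TraesCS2D02G570900 had lost its call. The AAC Magnet value of TraesCS3B02G024400 was lowest in that library, at 21.5. Over the 16 genes without a call, log2 fold changes reached from -0.999 to 0.66 in the 3 contrasts. The interval of TraesCS3B02G024400 between AAC Concord and AAC Magnet ran from -1.75 to 0.06 (95%), wide enough for a change of the size of its neighbour's. That of TraesCS3A02G023500 ran from -0.47 to 0.20. The ratio of the highest to the lowest variety mean was under 2 for 15 of the 18 genes, with a lowest value of 1.13 for TraesCS6D02G390700 and a highest of 3.16 for TraesCS3B02G024500. Without AAC Concord replicate 1 the ratio was under 2 for 15 genes as well, and ran from 1.07 to 3.90. AAC Magnet had the highest mean for 9 genes, AAC Concord for 6 and AAC Tradition for 3. These counts were the same without AAC Concord replicate 1, though TraesCS2D02G566400 was then highest in AAC Concord and TraesCS6D02G390700 in AAC Magnet. The median log2 fold change over the 18 genes was -0.21 between AAC Concord and AAC Magnet, 0.06 for AAC Concord against AAC Tradition, and 0.17 for AAC Magnet against AAC Tradition. The same medians over all genes tested were -0.008, -0.006 and -0.002. Without AAC Concord replicate 1 the medians of the 18 genes were -0.11, 0.07 and 0.17.

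The genes of the run on 2D were not called with or without AAC Concord replicate 1, but their log2 fold changes moved with it. Against AAC Magnet, AAC Concord changed from -0.35 to 0.04 for TraesCS2D02G566400 and from -0.47 to -0.10 for TraesCS2D02G566500 when the library was left out. For TraesCS2D02G567100 the value moved from 0.15 to 0.45, and for TraesCS2D02G567500 from -0.55 to -0.12. Against AAC Tradition the values moved from 0.05 to 0.45 for TraesCS2D02G566400, from -0.40 to -0.03 for TraesCS2D02G566500, from 0.11 to 0.42 for TraesCS2D02G567100 and from -0.47 to -0.04 for TraesCS2D02G567500.

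**Figure D3:**
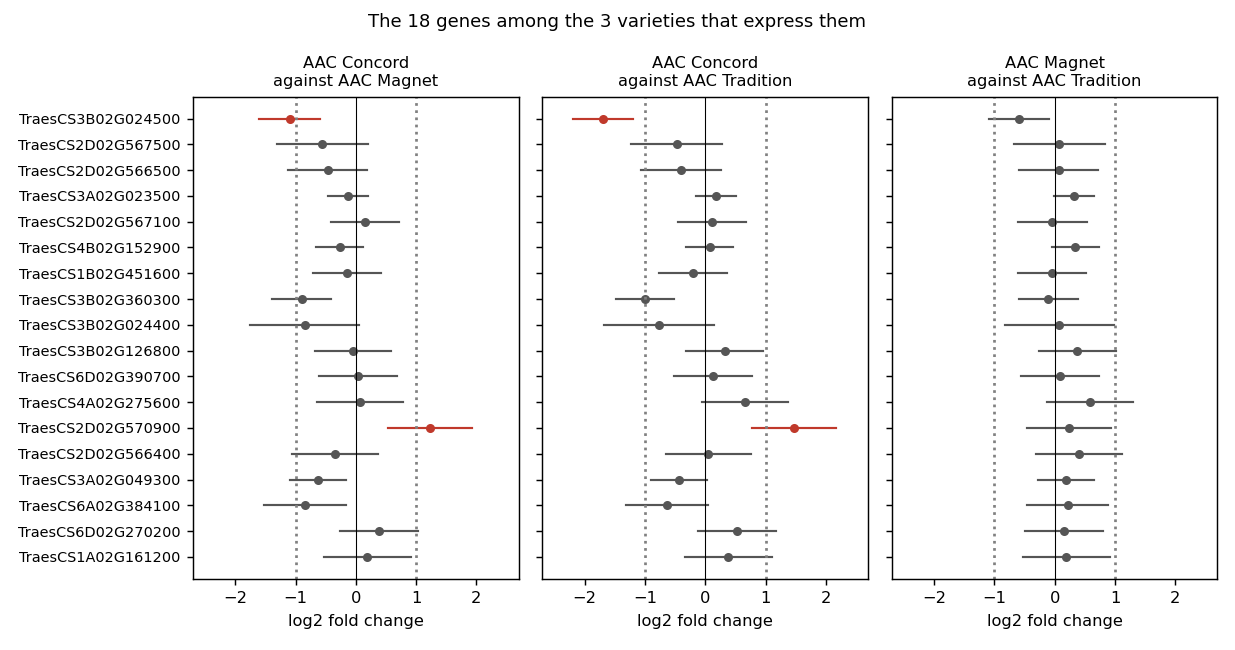
Log2 fold changes of the 18 genes among AAC Concord, AAC Magnet and AAC Tradition, with 95% confidence intervals from limma and dotted lines at the fold change limits of -1 and 1. Red points are called, and they are TraesCS3B02G024500 and TraesCS2D02G570900, each in both contrasts with AAC Concord.

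The genes around the 18 were then examined. A neighbour was a tested gene outside the blocks that stood within 5 positions of a gene of the set in the order of tested genes on the chromosome, and that had itself not met the limits of the set. There were 137 neighbours. AAC Starbuck was compared with the mean of the other 3 varieties in a limma fit of all 12 libraries and 44026 genes. For neighbours without reads in AAC Starbuck, the zeros lower the estimated spread in this fit. Their SE and adjusted p may therefore be too small, and the count of neighbours called lower includes such genes. Of the neighbours, 16 (11.7%) were lower in AAC Starbuck, where 2.35% of all genes tested were called lower. Another 8 (5.84%) were higher, where 3.83% of all genes were called higher. Among the 42722 placed genes outside the blocks and the set, the shares were 2.13% lower and 3.502% higher. The median log2 fold change of the neighbours was 0.01, as was that of all genes tested. On 2D 6 of 17 neighbours were lower, and on the other chromosomes 10 of 120 (8.33%). Of the 18 genes, 12 had a neighbour called lower, and 10 had one whose AAC Starbuck libraries were all below the other 9. Of the 31075 candidates outside the set, counted in the same way, 16.7% had a neighbour called lower and 7.30% had one without overlap. Neighbouring genes lie in shared segments and are not independent of each other, so these counts were not tested against the background.

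**Figure D4:**
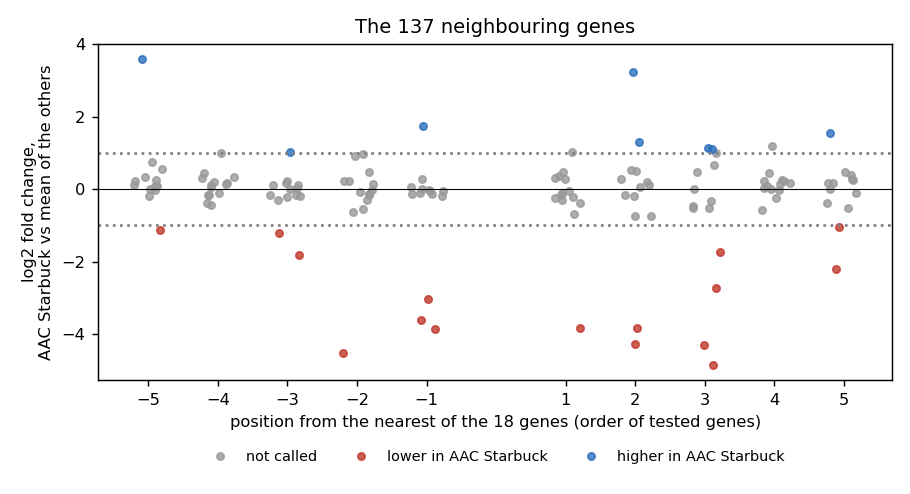
Log2 fold change of AAC Starbuck against the mean of the other 3 varieties for the 137 neighbours, placed by their position in gene order from the nearest gene of the set, with dotted lines at the fold change limits. The 16 neighbours called lower reach down to -4.85, and the 8 called higher reach up to 3.59.

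The neighbours that fell most were on 2D, after the run. TraesCS2D02G571300 gave 3.29, 2.08 and 3.99 in AAC Starbuck, against 130.4, 206 and 187 in AAC Concord, 56.6, 124 and 117 in AAC Magnet, and 86.8, 81.5 and 123 in AAC Tradition. Its log2 fold change was -4.85 (SE 0.263, limma adjusted p = 4.6e-07). TraesCS2D02G570300 gave 4.95, 1.04 and 0.799 in AAC Starbuck and 34.7 to 82.8 in the other 9 libraries, a log2 fold change of -4.54 (SE 0.346, limma adjusted p = 8.8e-06). Both genes were low in every AAC Starbuck library without being at 0, and the groups did not overlap. TraesCS2D02G570300 missed the set by its 4.95 in replicate 1.

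The neighbours that rose most in AAC Starbuck were on 3A and 3B. TraesCS3A02G047500, near TraesCS3A02G049300, gave 179, 171 and 144 in AAC Starbuck and 4.19 to 26.0 in the other libraries, a log2 fold change of 3.59 (SE 0.294, limma adjusted p = 1.6e-05). TraesCS3B02G127400, near TraesCS3B02G126800, gave 72.5, 48.8 and 66.3 in AAC Starbuck and 1.24 to 16.7 elsewhere, a log2 fold change of 3.23 (SE 0.367, limma adjusted p = 2.2e-04). Neither gene was undetected outside AAC Starbuck. Of the 14 placed genes that reached 10 in all AAC Starbuck libraries and stayed at 1.3 or less in all others, 0 were neighbours of the set.

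Some further neighbours are named because their values drew attention once they had been seen. TraesCS3B02G024300, directly before the pair on 3B, was at 0 in all 3 AAC Starbuck libraries and at 1.77 to 39.7 in the other 9, a log2 fold change of -3.87 (SE 0.506, limma adjusted p = 6.4e-04). TraesCS6A02G385100, near TraesCS6A02G384100, was also at 0 in AAC Starbuck and at 5.77 to 36.7 elsewhere, a log2 fold change of -4.27 (SE 0.320, limma adjusted p = 7.5e-06). These genes were as low in AAC Starbuck as the 18, and were outside the set because some other libraries stood below 10. Their zeros in AAC Starbuck lower the estimated spread, so their SE and adjusted p may be too small. TraesCS6D02G270100, directly before TraesCS6D02G270200, gave 1.65, 7.27 and 7.98 in AAC Starbuck and 40.9 to 139.8 elsewhere (log2 fold change -3.63, SE 0.364, limma adjusted p = 8.5e-05). TraesCS4B02G153600, near TraesCS4B02G152900, gave 0, 1.04 and 0.796 in AAC Starbuck and 2.48 to 18.7 elsewhere (log2 fold change -2.72, SE 0.290, limma adjusted p = 1.3e-04).

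For a few of the neighbours called lower, AAC Starbuck was not alone. TraesCS6D02G392000 was at 0 in all libraries of AAC Starbuck, AAC Concord and AAC Magnet, and at 85.1 to 109 in AAC Tradition. TraesCS3A02G024100 gave 4.12, 5.19 and 3.99 in AAC Starbuck and 0 in all AAC Tradition libraries, with 50.4 to 95.2 in AAC Concord and AAC Magnet. Of the 16 neighbours called lower, 12 had no overlap between the AAC Starbuck libraries and the other 9, as had 5 of the 8 called higher. Among all genes outside the set that were called lower, 39.3% had no overlap, and among all called higher 42.5%.

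The end of 2D was followed gene by gene, from TraesCS2D02G566400 to TraesCS2D02G571300, bounds that were set after the values had been seen. This segment has 50 identifiers in the table, from position 5504 to 5553 of the 5851 on the chromosome, of which 26 had a read in at least 1 library and 15 passed the filter on low values. The 15 were 5 genes of the set, 6 other genes called lower in AAC Starbuck, and 4 that were not called lower. Besides the pair described above, the genes called lower were TraesCS2D02G569700 (log2 fold change -4.29, SE 0.431), TraesCS2D02G570400 (-3.05, SE 0.365), TraesCS2D02G571100 (-3.84, SE 0.394) and TraesCS2D02G571200 (-3.84, SE 0.138). TraesCS2D02G571100 gave 11.5, 9.35 and 3.20 in AAC Starbuck, against 42.2 to 189 in the other libraries. TraesCS2D02G570400 was at 0 in all AAC Starbuck libraries, at only 4.01 to 14.8 in the others. With these zeros its SE, too, may be too small.

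The genes of the segment that were not lower lay between the low ones. TraesCS2D02G567600, whose identifier follows directly on the run, gave 37.9, 29.1 and 43.9 in AAC Starbuck and 16.0 to 37.6 in the other libraries. TraesCS2D02G569800 gave 154, 199 and 262 in AAC Starbuck and 79.3 to 132 in the others, so that every AAC Starbuck library was higher. Its log2 fold change of 0.99 (SE 0.198, limma adjusted p = 0.0094) was just short of the limit, so it was not called. TraesCS2D02G568600 and TraesCS2D02G569900 overlapped between AAC Starbuck and the others, with log2 fold changes of 0.10 and 0.18. The low genes thus did not form an unbroken stretch of the reference order.

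The tested genes on either side of the segment were counted as well. Of the 20 tested genes before it 0 were lower and 0 were higher, and of the 20 after it 1 was lower and 1 was higher. Over all genes tested, 2.35% were called lower and 3.83% higher in AAC Starbuck, and counts over 20 genes cannot be told apart from these shares. Both bounds are low genes chosen after the values were seen, so any scarcity of low genes just outside would follow in part from that choice. The lower gene was TraesCS2D02G574600, at 0 to 0.822 in AAC Starbuck and 3.30 to 22.9 in the other libraries. AAC Concord replicate 1 was low in the other genes of the segment as well, with a ratio to its fellow replicates of 0.325 to 0.933 and a median of 0.678 over the 10 tested genes that are not in the set. The log2 fold changes of TraesCS2D02G571300 and TraesCS2D02G570300 stayed between -5.002 and -4.65 and between -5.08 and -4.22, respectively, with any 1 of the 12 libraries left out.

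**Figure D5:**
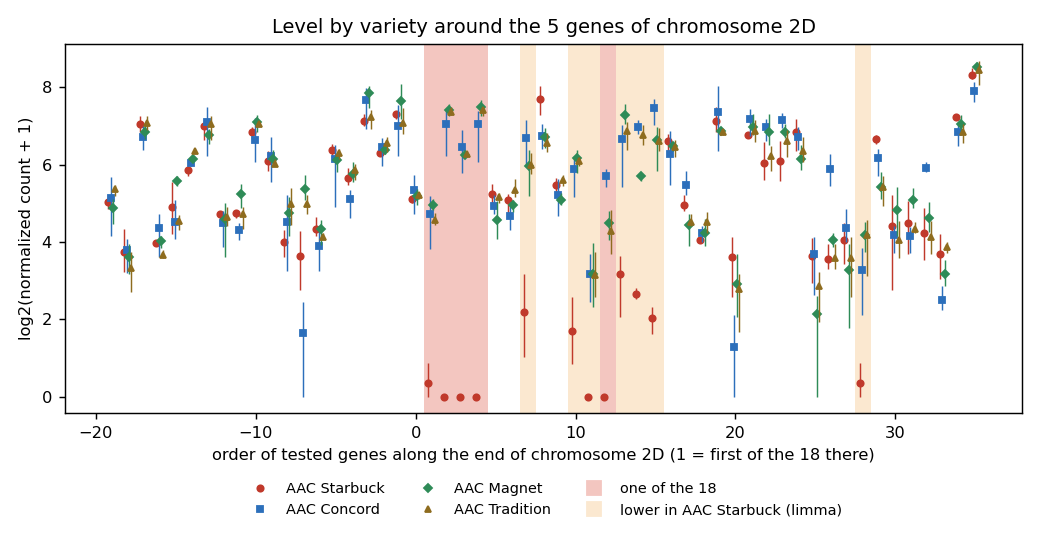
Normalized counts at the end of chromosome 2D by gene order, counted from TraesCS2D02G566400, with the mean of each variety as points and the lowest and highest library as bars, on an axis of log2(value + 1). Shading marks genes of the set and genes called lower in AAC Starbuck. Genes that were not called lower, such as TraesCS2D02G567600 and TraesCS2D02G569800, stand between the low ones.

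The same limits were also applied with each of the other varieties in the place of AAC Starbuck. AAC Concord alone gave 72 genes (0.228% of its 31568 candidates), AAC Magnet gave 22 (0.0703% of 31294) and AAC Tradition gave 7 (0.0223% of 31371). The 18 of AAC Starbuck were thus a small set beside that of AAC Concord, and of a size with that of AAC Magnet. The 6 blocks were left out for every variety.

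The study turned on genes of wax synthesis, and its list of 39 such genes was compared with the set. All 39 are in the table, and 0 of them were among the 18. Only 6 of the 39 reached 10 in all 9 libraries of the other varieties outside the blocks, and so could have been chosen. There were 17 wax genes at 1.3 or less in all AAC Starbuck libraries, of which 6 were above 0 in at least 1 of the 12 libraries. How these 6 stood in each of the other varieties is not given here. Low values were common among all genes too, since only 60489 to 61166 of the 107411 genes were above 0 in an AAC Starbuck library. The 17 are therefore not read as a result about wax genes.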

How the data were processed

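Flag leaf RNA was sequenced in 12 libraries, 3 of each of 4 varieties. Reads were trimmed (Trimmomatic), quantified on the second version of the wheat reference (Salmon) and analysed for differential expression (DESeq2) by the authors, while the identifiers in the table are those of the first version. The deposited signal values are normalized counts, and how they were scaled is not given in the sources used here. A supplementary table heads the same values as TPM, but the columns sum to 5077330 or more, above the total of TPM. Between 91.0% and 93.2% of the low values came out as whole reads (tolerance 0.05), so no count model was run. Differences were tested on log2(value + 1) by limma 3.58.1 (R 4.3.3), with variety as the only term and genes at 10 or more in at least 3 libraries. Residual and prior degrees of freedom were 6 and 2.75 in the fit of 9 libraries, and 8 and 2.80 in that of 12. Counting intervals are exact at 95%. Other steps used Python 3.11.15 with matplotlib 3.10.9, scipy 1.17.1, pandas 2.3.3 and numpy 2.4.6, and the pipeline was tested on simulated data.

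The genes of the set, the lists and the tests were chosen with earlier results of these data known. All genes of the set were named, as were the 2 neighbours with the largest change in each direction, and the 2 genes on each side of each limit. Other genes are named as chosen after their values were seen. Alternatives were other limits, pseudocounts, filters, scalings (TMM or the same total), a trend in the prior variance, a replicate block, no fold change limit, other windows, all libraries in a single fit, and each library left out.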

Additional observations from a re-analysis of the deposited data

How the results depend on the processing

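The set kept its 18 genes or lost members only where the limits were made stricter: it held 15 genes at 0 in all AAC Starbuck libraries, 23 at 2.6 or less, 29 at 5 or more and 9 at 20 or more in the other varieties, 26 with the blocks kept, and 18 to 23 with a library left out. Runs held 3 genes at the limit of 20 and 6 to 8 with a library left out. At the limit of 5 the same rule gave 12 genes for AAC Tradition, 44 for AAC Magnet and 110 for AAC Concord. It gave 44 for AAC Concord at the limit of 20, and 12 for AAC Tradition with the blocks kept. With a library left out it gave 7 to 11 for AAC Tradition (11 without its replicate 1), 22 to 26 for AAC Magnet and 72 to 81 for AAC Concord.

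Of the 18 genes, 1 was called between AAC Concord and AAC Magnet with no filter, and 1 in each of the 2 contrasts with AAC Concord and in the F test with a mean of at least 50, where fewer genes were tested. With a library left out, 0 to 2 were called between AAC Concord and AAC Magnet, 1 to 3 between AAC Concord and AAC Tradition, and 2 to 4 in the F test. Without AAC Concord replicate 2 there were 0 between AAC Concord and AAC Magnet, and without its replicate 1 or 3 there was 1. Without AAC Tradition replicate 2 or 3 there was 1 between AAC Concord and AAC Tradition. Between AAC Magnet and AAC Tradition the count was 0 in all alternatives run.

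Over all genes, a mean of at least 50 left 1471 calls between AAC Concord and AAC Magnet, 1065 between AAC Concord and AAC Tradition, 951 between AAC Magnet and AAC Tradition, 4766 in the F test, and 336 lower and 421 higher in AAC Starbuck. With no fold change limit the counts were 5754 between AAC Concord and AAC Magnet, and 1959 lower and 2542 higher in AAC Starbuck. With a library left out, calls numbered 2620 to 3804, 2050 to 2746 and 1777 to 2535 in the 3 contrasts, 4912 to 6068 in the F test, and 836 to 983 lower and 933 to 1707 higher in AAC Starbuck, the 933 without AAC Starbuck replicate 2.

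Neighbours called lower numbered 7 with a mean of at least 50, 7 within 2 positions, 25 within 10, and 13 to 16 with a library left out. Those called higher numbered 5 with no filter, 3 with a mean of at least 50, 3 within 2 positions, 14 within 10, and 4 to 8 with a library left out, the 4 without AAC Starbuck replicate 2 and 5 without AAC Magnet replicate 3 or without AAC Concord replicate 1. The cause was not tested. Scaling to the same total moved the median log2 fold change of all genes to -0.12 between AAC Concord and AAC Magnet and to 0.11 between AAC Magnet and AAC Tradition, where the balance over all genes turned from 1163 higher and 1392 lower to 1435 higher and 1200 lower.

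Residual correlations were -0.14 to 0.21 for libraries of the same replicate number and -0.23 to 0.18 for other numbers. They gave no sign of pairing by number, but overlapping ranges cannot exclude it. A replicate block left 2, 2 and 0 genes of the set called in the contrasts and 3 in the F test, with 16 neighbours lower and 9 higher, and 3835, 2809, 2493 and 6389 genes called in all. No call of a named gene changed direction under these alternatives. Depth limits the genes at 0 to a mean of 0.875 normalized counts in AAC Starbuck.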
